A study of Homo sapiens with 12 samples.

Results

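Wnt target genes are genes whose transcription is switched on by β-catenin, and 10 of them were followed here: AXIN2, LGR5, RNF43, ZNRF3, NKD1, ASCL2, SP5, TCF7, MYC and CCND1. They were taken by gene symbol from a list drawn up for this account, and all 10 were found among the 25343 genes of the count table. RNA-seq had been run on SW48, an established colorectal carcinoma line, and on OVK18, an established line described as ovarian, both made to express the Cas9 nuclease. Each line had been given sgWRN2 or sgWRN3, guide RNAs against WRN, a DNA helicase of the RecQ family, or sgCh2-2, a control guide cutting between genes on chromosome 2, and was harvested 72 h after transduction. The 6 groups were thus SW48 sgWRN2, SW48 sgWRN3, SW48 sgCh2-2, OVK18 sgWRN2, OVK18 sgWRN3 and OVK18 sgCh2-2, with 2 libraries (A and B) in each. All groups carried Cas9 and a guide, so a group without a guide was not among them. Nothing in the labels says that A and B came from separate cultures, and p-values below then measure only the spread between these libraries, which may be technical.

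In the canonical Wnt pathway, a secreted Wnt protein binds a Frizzled receptor and an LRP co-receptor at the cell surface. This stops the destruction complex, a protein assembly built around APC and AXIN, from marking β-catenin for degradation, and β-catenin then enters the nucleus and acts with the DNA-binding proteins of the TCF/LEF family. Several of the genes so induced encode inhibitors of the pathway, which makes them feedback genes, and in the intestine the pathway maintains the stem cells of the crypt. SW48 is known to carry an activating mutation in CTNNB1, the gene of β-catenin. In bulk RNA, fewer expressing cells and less RNA per cell cannot be told apart.

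The sequence before the SP5 start is shown because SP5, a zinc-finger transcription factor of the Sp family, was counted in all 6 SW48 libraries and in none of OVK18, and because the TCF/LEF core recurs in it. RefSeq promoter windows on GRCh38.p14 could be matched to 3 of the 10 genes, SP5, TCF7 and RNF43. The SP5 window covers the 250 bases before the start, chr2:170715087-170715336, plus strand, and the capitals mark matches to the TCF/LEF core:

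SP5: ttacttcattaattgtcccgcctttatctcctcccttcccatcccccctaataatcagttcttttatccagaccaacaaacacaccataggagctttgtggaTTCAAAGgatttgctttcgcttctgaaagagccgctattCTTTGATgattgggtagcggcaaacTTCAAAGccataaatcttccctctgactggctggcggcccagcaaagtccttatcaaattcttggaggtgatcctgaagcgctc

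The letters searched were CTTTGAT and CTTTGAA on both strands, and the 3 matches, which do not overlap, begin 148, 109 and 84 bases before the start. Of all 35116 windows of this length, 5.94% held at least 1 match and 0.0199%, or 7 windows, held at least 3. The 4 windows of TCF7 and RNF43 held none of these letters, and such matches describe the sequence without showing binding.

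Total counts ran from 15423162 to 32581625 per library. WRN itself was lower with both WRN guides than with sgCh2-2 in every library of each line. This checks the labels of the WRN guides against the control guide, but cannot check sgWRN2 against sgWRN3. In SW48 its level was 37.2 and 34.1 CPM with sgWRN2 and 42.3 and 56.9 CPM with sgWRN3, against 91.2 and 111.6 CPM with sgCh2-2, where CPM is the count scaled to library size with TMM factors. In OVK18 it was 22.0 and 21.0 CPM with sgWRN2 and 22.2 and 23.0 CPM with sgWRN3, against 32.0 and 39.8 CPM with sgCh2-2. The log2 difference passed in SW48 with both guides together (-1.27, edgeR adjusted p = 0.00409) and missed the threshold in OVK18 (-0.71, adjusted p = 0.206). With sgWRN2 alone it passed in SW48 (-1.51, edgeR adjusted p = 0.000461) and missed in OVK18 (-0.74, adjusted p = 0.0658). With sgWRN3 alone it missed in SW48 (-1.03, edgeR adjusted p = 0.438) and in OVK18 (-0.67). Summed markers of intestinal epithelium lay between 794 and 894 CPM in SW48 libraries, with EPCAM the largest part and CDX1 at 0, against 0.436 to 1.05 CPM in OVK18 libraries. The 8 markers of Müllerian and ovarian epithelium summed to 103 to 119 CPM in SW48 and 74.3 to 81.7 CPM in OVK18, and the list was mixed. In the OVK18 control libraries PAX8, WFDC2 and EMX2 had no count and MSLN had 4, while HOXA11 averaged 15.8 CPM in SW48 controls and 39.6 CPM in OVK18 controls, HOXA10 58.9 and 34.5 CPM, and WT1 was counted 0 times in SW48 controls and 52 times in OVK18 controls. PAX8 averaged 4.31 CPM in the SW48 controls. Of the 6 markers of this list tested between the control libraries, 4 were called higher in SW48 and 2 lower. At 0 were 2 of the 6 in the OVK18 controls and 1 in the SW48 controls. These markers therefore did not bear out the ovarian label of OVK18. Fibroblast markers summed to 25.8 to 44.5 CPM in SW48 and 415 to 486 CPM in OVK18, where COL3A1 gave most of the sum.

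All 10 Wnt target genes were higher in SW48 than in OVK18. The 7 with counts in both lines differed from 2.22-fold for CCND1 to 775-fold for AXIN2, and LGR5, SP5 and ASCL2, with no count in OVK18, have lower bounds only. The smallest differences were those of CCND1, NKD1 and MYC, and AXIN2, ZNRF3, RNF43 and TCF7 differed by more than 9-fold. This comparison took the control libraries of both lines, 2 of SW48 against 2 of OVK18, in edgeR's quasi-likelihood test with p-values adjusted by Benjamini and Hochberg over 14199 genes and a threshold of 0.05. By that rule 10 of 10 were higher, where 33.9% of all genes tested were called higher and 34.7% lower. The median log2 difference was 3.69 over the 10 genes and 0 over all genes tested. Of the 10, the 3 genes LGR5, SP5 and ASCL2, passed the filter on low counts through SW48 alone and so could only be higher there. The marker sums above moved with the line as well, and their part in these differences was not tested.

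**Figure D1:**
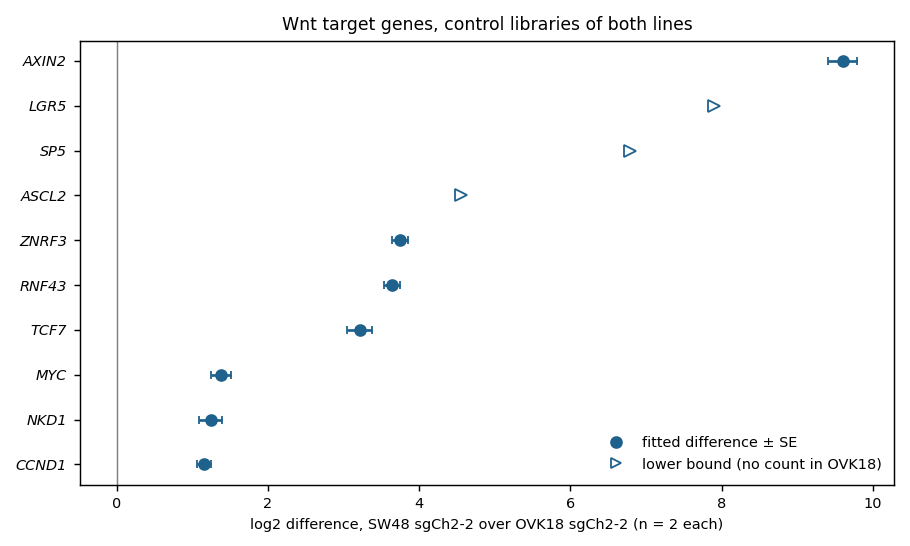
Log2 difference between the control libraries, SW48 sgCh2-2 over OVK18 sgCh2-2 (n = 2 each), for the 10 Wnt target genes in order of size. Points are fitted differences with their SE and triangles are lower bounds for genes with no count in OVK18; all lie to the right of 0, the 7 fitted differences from 1.15 for CCND1 to 9.60 for AXIN2.

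AXIN2 encodes a scaffold protein of the destruction complex and is widely used as a general readout of β-catenin activity. Its level was 851.8 and 825.7 CPM in SW48 control libraries, against 1.44 and 0.774 CPM in OVK18 control libraries. The groups did not overlap, and the log2 difference was 9.60 (SE 0.194, adjusted p = 1.88e-12), or 775-fold. Over all 6 libraries of each line AXIN2 held between 12808 and 26590 counts in SW48 and between 13 and 37 counts in OVK18. By FPKM, which divides by transcript length, its mean ranked 335 from the top in SW48 and 13191 in OVK18, of 25273 genes.

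RNF43 and ZNRF3 are related membrane ubiquitin ligases that remove Frizzled receptors from the cell surface. RNF43 was at 240.2 and 232.4 CPM in SW48 control libraries, against 19.0 and 18.9 CPM in OVK18 control libraries. Every SW48 library was above every OVK18 library, and the log2 difference was 3.64 (SE 0.102, adjusted p = 1.39e-11), or 12.5-fold. ZNRF3 was at 250.4 and 269.5 CPM in SW48 controls, against 18.5 and 20.1 CPM in OVK18 controls. Its log2 difference was 3.75 (SE 0.11, adjusted p = 2.09e-11), or 13.4-fold, close to that of RNF43. NKD1, which binds Dishevelled and dampens the signal, differed far less. It was at 16.0 and 16.5 CPM in SW48 controls, against 7.61 and 6.19 CPM in OVK18 controls, and the groups again did not overlap. The log2 difference of NKD1 was 1.24 (SE 0.149, adjusted p = 1e-05), or 2.36-fold.

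LGR5 encodes a receptor for R-spondins and marks intestinal stem cells, and ASCL2 is a basic helix-loop-helix transcription factor of the same cells. LGR5 was at 13.4 and 11.2 CPM in SW48 control libraries, and no read was counted in any of the 6 OVK18 libraries. Against a floor of 3 counts over the 2 OVK18 control libraries, which is 0.0517 CPM, LGR5 was at least 239-fold higher in SW48. ASCL2 was at 1.19 and 1.24 CPM in SW48 controls and also without a count in OVK18. Its level in SW48 was low, with 21 to 37 counts per library, and it was at least 23.5-fold higher there. SP5, with the promoter shown above, was at 6.41 and 4.97 CPM in SW48 controls and had no count in OVK18. It was at least 110-fold higher in SW48. These bounds cover counting error only. Tests of LGR5, ASCL2 and SP5 could only come out higher in SW48, so their p-values are not given.

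TCF7 encodes TCF1, one of the TCF/LEF proteins through which β-catenin acts. It was at 62.0 and 52.2 CPM in SW48 control libraries, against 6.60 and 5.73 CPM in OVK18 control libraries. The log2 difference was 3.22 (SE 0.164, adjusted p = 2.81e-09), or 9.29-fold, with no overlap. MYC, a transcription factor that drives growth, was at 333.3 and 266.3 CPM in SW48 controls, against 121.6 and 108.9 CPM in OVK18 controls. Its SW48 libraries were all higher, although the SW48 pair itself was spread widely, and the log2 difference was 1.38 (SE 0.13, adjusted p = 1.11e-06), or 2.6-fold. CCND1, which encodes cyclin D1, the partner of CDK4 and CDK6 in the first gap phase of the cell cycle, was at 606.3 and 642.1 CPM in SW48 controls, against 286.6 and 275.5 CPM in OVK18 controls. The log2 difference was 1.15 (SE 0.0932, adjusted p = 2.54e-07), or 2.22-fold.

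**Figure D2:**
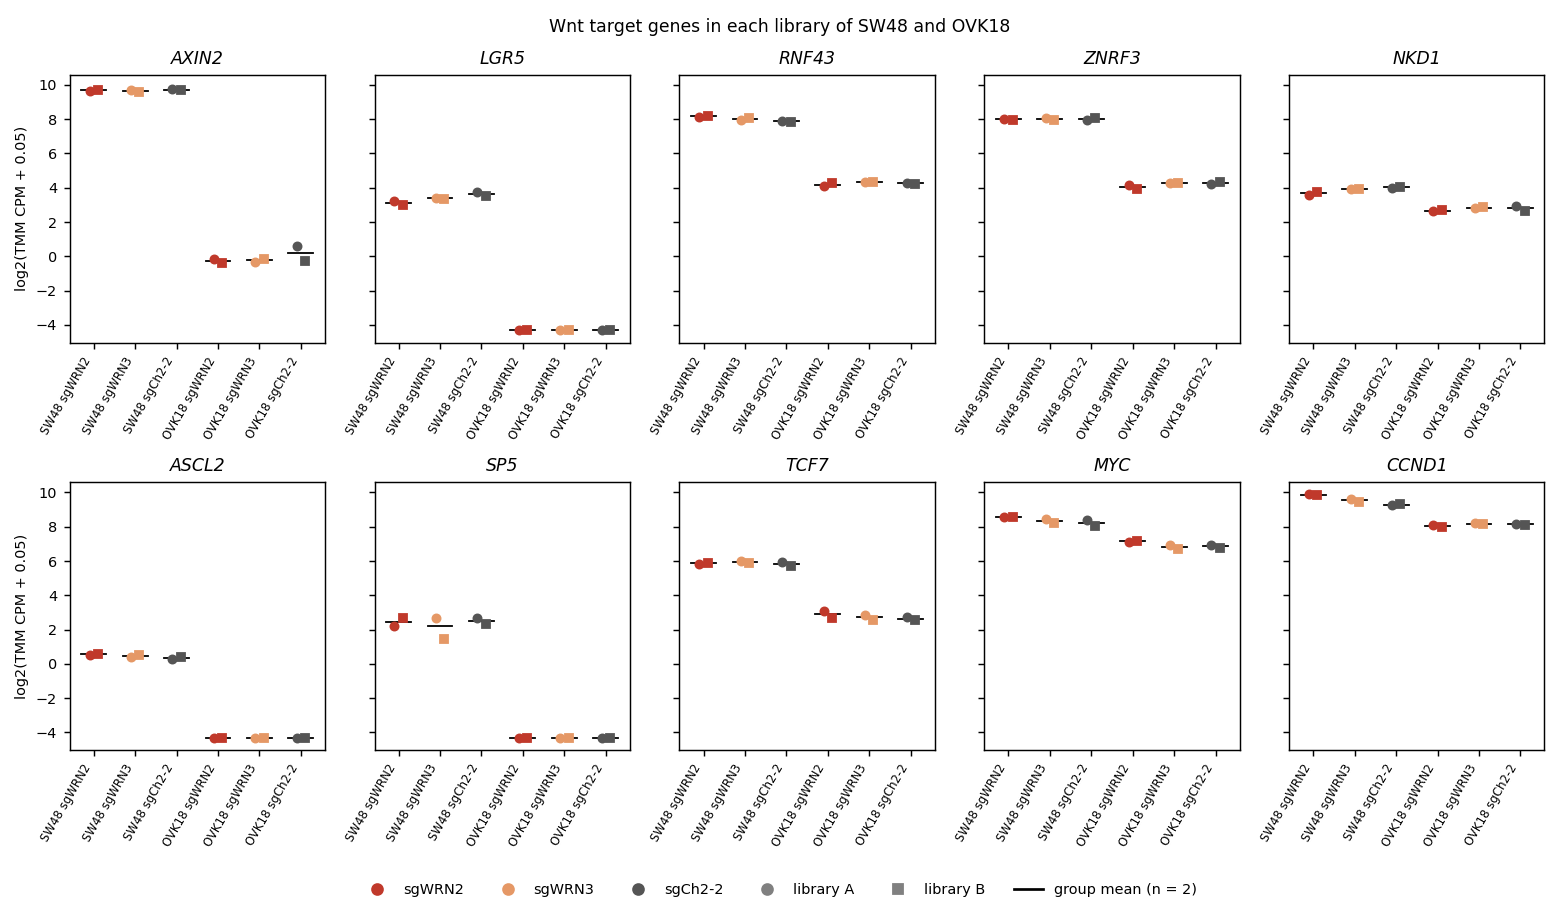
Level of each Wnt target gene in all 12 libraries, as log2 of TMM CPM plus 0.05 on a shared axis, by line and guide. Circles are library A, squares library B and bars the group mean (n = 2); the SW48 groups lie above the OVK18 groups in every panel, and LGR5, ASCL2 and SP5 sit at the floor in OVK18.

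Ordered by FPKM within each line, the genes took different places. In SW48 the medians over 6 libraries were 151 FPKM for AXIN2, 137.6 FPKM for CCND1, 122.5 FPKM for MYC, 41.8 FPKM for RNF43, 30.4 FPKM for ZNRF3 and 15.8 FPKM for TCF7. Below these came SP5 at 2.41 FPKM, LGR5 at 1.77 FPKM, NKD1 at 1.31 FPKM and ASCL2 at 0.593 FPKM. The library ranges of AXIN2 (133.8 to 164.6 FPKM) and CCND1 (117.3 to 169.9 FPKM) overlapped, as did those of CCND1 and MYC (92.1 to 128.0 FPKM). The ranges of SP5, LGR5 and NKD1 also ran into each other, while RNF43, ZNRF3, TCF7 and ASCL2 were each separate from their neighbours. In OVK18 the order began with CCND1 at 51.2 FPKM and MYC at 42.7 FPKM, whose ranges overlapped, and dropped to RNF43 at 3.17 FPKM, ZNRF3 at 2.24 FPKM and TCF7 at 1.88 FPKM, the last pair overlapping. NKD1 followed at 0.591 FPKM and AXIN2 at 0.152 FPKM, ahead of the 3 genes at 0. AXIN2 thus stood first of the 10 in SW48 and the seventh in OVK18.

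The rest of the pathway was described from lists of its parts, chosen with earlier results of these data known, in the same SW48 over OVK18 comparison. Of 16 other β-catenin targets tested, 14 were higher and 2 lower in SW48, beside 33.9% of all genes higher and 34.7% lower. Of the 14, 6 (LEF1, TNFRSF19, APCDD1, BMP4, TBX3 and FGF20) were at 0 in the OVK18 controls, so that they could only come out higher. The 16 had a median log2 difference of 4.29 as fitted and 3.38 with genes at 0 in OVK18 put at their bound. CD44, a hyaluronan receptor, averaged 245.6 ± 11.3 CPM in SW48 controls and 0.155 ± 0.000377 CPM in OVK18 controls (SD, n = 2 each), a log2 difference of 10.58 (edgeR adjusted p = 1.88e-12). The OVK18 value of CD44 rests on 9 counts over the 2 control libraries, so its small SD says little of the spread. BMP4, a secreted ligand of the TGF-β superfamily, averaged 890.3 CPM in SW48 controls and had no count in OVK18 controls, at least 17200-fold higher. TBX3, a T-box transcription factor, was at least 796-fold higher and TNFRSF19, a receptor of the TNF receptor superfamily, at least 1010-fold higher by the same floor. The targets lower in SW48 were SOX9, a transcription factor of intestinal progenitors (log2 difference -1.89, adjusted p = 7.48e-08), and DKK1, a secreted Wnt inhibitor (-5.99, adjusted p = 4.06e-08). DKK1 had only 5 counts over the SW48 control libraries.

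The lists upstream of β-catenin held genes called in each direction, and their counts stand beside the same 33.9% of all genes higher and 34.7% lower; nothing particular to a list is read from them. Of 12 ligand and secretion genes tested, 7 were higher and 3 lower in SW48, with 2 of the 12 at 0 in the OVK18 controls. WLS, the carrier that brings Wnt proteins to the cell surface, averaged 64.8 ± 6.60 CPM in SW48 controls and 0.446 ± 0.0263 CPM in OVK18 controls (SD, n = 2 each), a log2 difference of 7.16. The ligand WNT7B was higher (5.40, with 4 counts over the OVK18 controls) and the ligand WNT2B lower (-1.89). WNT16 was at least 18.9-fold higher, having no count in OVK18. Of 17 receptor genes, 10 were higher and 4 lower. The Frizzled receptor FZD8 was lower (-6.09) and FZD7 higher (2.68). The receptor ROR1 was higher (6.09, with 10 counts over the OVK18 controls), and LGR4, an R-spondin receptor related to LGR5, was lower (-2.75). Of 9 antagonist genes tested, 4 were higher and 4 lower. At 0 were 2 of the 9 in the SW48 controls and 1 in the OVK18 controls. DKK1, NOTUM and APCDD1 were also on the list of other β-catenin targets. SFRP4 was lower in SW48 (-5.59, from 4 counts over the SW48 controls), SFRP1 was at least 76.9-fold lower with no count in SW48, and KREMEN1, a DKK1 receptor, was higher (1.77).

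In the destruction complex and its partners, 3 of 16 genes were higher and 9 lower in SW48, again beside 33.9% and 34.7% of all genes. APC averaged 150.0 ± 9.21 CPM in SW48 controls and 1399 ± 112 CPM in OVK18 controls (SD, n = 2 each), a log2 difference of -3.22 (edgeR adjusted p = 2.73e-10). APC2, a relative of APC, was also lower (-3.69), as was TNKS2 (-1.25), a tankyrase that marks AXIN for degradation, while AXIN1 was higher (1.07). CTNNB1 was 0.49 lower on the log2 scale in SW48 (edgeR adjusted p = 0.00035). Among 15 TCF/LEF genes and co-factors, 3 were higher and 9 lower. TCF7L1 held 1 count over the SW48 control libraries and 16286 counts over the OVK18 control libraries, the opposite direction to TCF7. TCF7L2 was lower (-1.17), and of the TLE co-repressors TLE1 (3.59) and TLE4 (3.47) were higher and TLE3 (-2.63) lower. LEF1 was counted 23 times over the SW48 controls and not in the OVK18 controls, at least 9.26-fold higher.

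Of 9 genes of the MYC network tested, 2 were higher and 3 lower in SW48, shares near or below those of all genes (33.9% and 34.7%). Among the called genes were MXD1, which competes with MYC for MAX (-2.66), MGA (-1.06), MXD4 (-1.50) and MAX (0.61). Of 7 genes around the D-type cyclins, 2 were higher and 2 lower. CCND2, the second D-type cyclin, was counted 26052 times over the SW48 controls and 1 time over the OVK18 controls. CDK6 was higher (1.54), and the inhibitor CDKN2A (-3.56) and the tumour suppressor RB1 (-1.24) were lower.

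**Figure D3:**
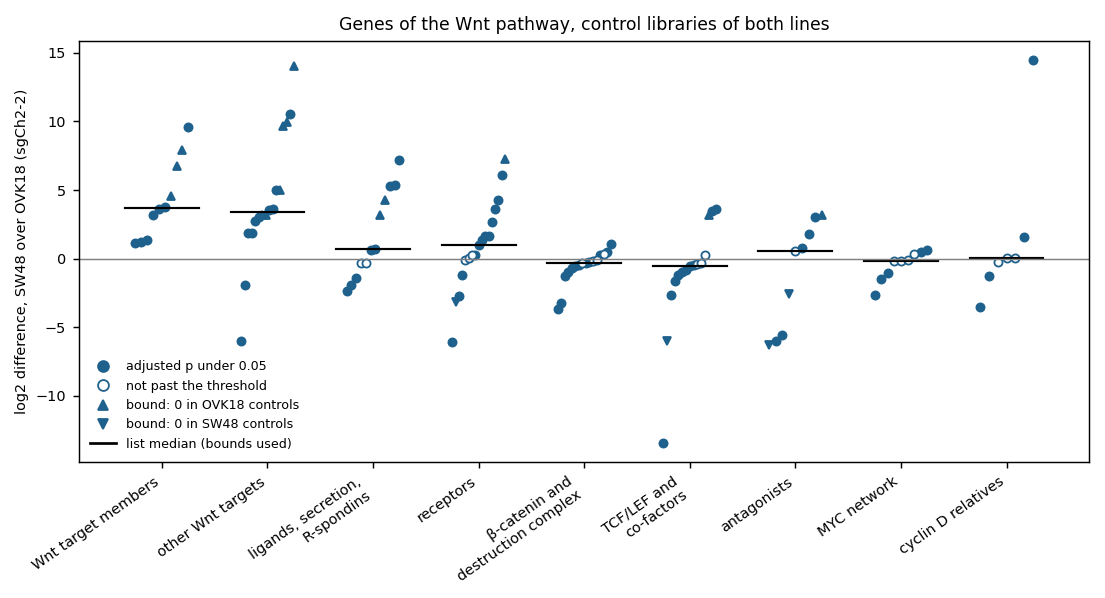
Log2 difference, SW48 over OVK18 control libraries (n = 2 each), for every tested gene of the Wnt target list and of 8 other lists. Filled points passed the threshold, triangles are bounds for genes at 0 in the controls of a line and bars are medians with bounds used; the 10 Wnt target genes all lie above 0 (median 3.69), while the destruction complex (median -0.29) and the TCF/LEF list (median -0.55) lie on both sides.

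Within SW48, CCND1 was the only gene of the 10 past the threshold, with both WRN guides together and with sgWRN2 alone. CCND1 was at 952.5 and 913.8 CPM with sgWRN2 and 793.8 and 702.4 CPM with sgWRN3, against 606.3 and 642.1 CPM with sgCh2-2. All 4 WRN-guide libraries were above both controls, and those with sgWRN2 were the highest. With both guides together the log2 difference of CCND1 was 0.42 (SE 0.081, edgeR adjusted p = 0.0355), or 1.34-fold. The 1 gene of 10 called stood against 0.866% of all genes called in either direction and 0.254% called higher. The median log2 difference was 0.02 over the 10 genes and 0.00 over all genes tested.

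The CCND1 call with both guides together was lost in 9 of 12 fits that left out 1 library. These were the fits without SW48 sgWRN2 A or B, sgWRN3 A, or sgCh2-2 A or B and those without OVK18 sgWRN3 A or B or sgCh2-2 A or B. The log2 difference lay between 0.36 and 0.46 in all 12. With sgWRN2 alone CCND1 differed by 0.58 (SE 0.0922, edgeR adjusted p = 0.00435), or 1.5-fold, where 3.08% of all genes were called and 1.13% called higher. With sgWRN2, 5 of the 10 genes (CCND1, RNF43, MYC, LGR5 and NKD1) had an unadjusted p under 0.05, as had 13.1% of all genes. Without SW48 sgWRN2 A the adjusted p was 0.052 and without SW48 sgCh2-2 A it was 0.0551. With sgWRN3 alone 0 of 10 genes and 0% of all genes passed in edgeR, and 1 of the 10, CCND1, had an unadjusted p under 0.05 (log2 difference 0.26, SE 0.092, unadjusted p = 0.015, adjusted p = 1). Of all genes 262 had an unadjusted p under 0.05 there; DESeq2 called 9 genes and limma-voom 0, and neither called any of the 10. With the sgWRN2 libraries left out and the library letter as a block, CCND1 was 1 of 10 called for sgWRN3 (0.26, edgeR adjusted p = 0.0108), where 1.24% of all genes were called. The guides set against each other gave a CCND1 difference of 0.32, sgWRN2 over sgWRN3, that missed the threshold (edgeR adjusted p = 0.189; 0.944% of all genes called). The comparisons of each guide share the sgCh2-2 libraries.

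Other measures moved with the guides in SW48. Total counts were 15423162 to 17144701 in the 4 WRN-guide libraries, against 30752291 and 18301780 in the controls. Summed over 8 fibroblast markers, the level was 44.0 and 44.5 CPM with sgWRN2 and 35.1 to 37.6 CPM with sgWRN3, against 25.8 and 34.0 CPM with sgCh2-2. Of that list COL1A2, PDGFRA and DCN had no count in SW48, and ACTA2, a smooth-muscle actin, gave nearly all of the sum, 43.8 CPM with sgWRN2 and 29.5 CPM with sgCh2-2. The part of depth and of these markers in the CCND1 result was not tested.

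The stem-cell and feedback genes gave smaller and uncalled differences in SW48. LGR5 was at 9.38 and 8.04 CPM with sgWRN2 and 10.5 and 10.2 CPM with sgWRN3, against 13.4 and 11.2 CPM with sgCh2-2. All 4 WRN-guide libraries were below both controls, but the log2 difference of -0.38 (SE 0.162, unadjusted p = 0.0435) had an edgeR adjusted p of 0.605. NKD1 had the same arrangement, with 11.9 and 13.5 CPM with sgWRN2 and 15.2 and 15.4 CPM with sgWRN3, against 16.0 and 16.5 CPM with sgCh2-2. Its log2 difference was -0.23 (SE 0.125, edgeR adjusted p = 0.759). RNF43 lay the other way, at 278.2 and 295.4 CPM with sgWRN2 and 251.3 and 263.8 CPM with sgWRN3, against 240.2 and 232.4 CPM with sgCh2-2. All 4 WRN-guide libraries were above both controls, and the log2 difference was 0.20 (SE 0.0786, edgeR adjusted p = 0.482). In all, 3 of the 10 genes (CCND1, RNF43 and ASCL2) had all 4 WRN-guide libraries above both controls, where 6.01% of all genes did, and 2 (LGR5 and NKD1) had all 4 below, where 5.33% did. These counts are by CPM. By FPKM the arrangement held for CCND1, ASCL2, LGR5 and NKD1 but not for RNF43, at 39.58 in sgWRN3 B and 40.69 in sgCh2-2 A. For ASCL2 the margin was small, 1.252 CPM in sgWRN3 A against 1.243 CPM in sgCh2-2 B.

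AXIN2 and ZNRF3 were nearly level across the SW48 guides. AXIN2 was at 814.9 and 834.4 CPM with sgWRN2 and 842.6 and 772.4 CPM with sgWRN3, against 851.8 and 825.7 CPM with sgCh2-2. The groups overlapped, and the log2 difference was -0.04 (SE 0.105, edgeR adjusted p = 1). For ZNRF3, with 246.2 to 267.2 CPM in the WRN-guide libraries and 250.4 and 269.5 CPM in the controls, it was -0.02 (SE 0.084, edgeR adjusted p = 1). TCF7 differed by 0.06 and ASCL2 by 0.18 (SE 0.125 and 0.271), both with an edgeR adjusted p of 1. SP5 differed by -0.21 (SE 0.311, edgeR adjusted p = 1) and varied widely between libraries, with 6.26 and 2.71 CPM in the sgWRN3 pair.

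MYC was at 372.5 and 381.8 CPM with sgWRN2 and 355.5 and 301.5 CPM with sgWRN3, against 333.3 and 266.3 CPM with sgCh2-2. The sgWRN2 libraries were above both controls and the sgWRN3 pair reached into the control range. The log2 difference of 0.23 (SE 0.112, edgeR adjusted p = 0.677) missed the threshold. Library A exceeded library B for MYC with sgWRN3 and with sgCh2-2 in both lines, by 0.24 and 0.32 on the log2 scale in SW48 and 0.22 and 0.16 in OVK18. With sgWRN2 A was lower by 0.04 in SW48 and 0.07 in OVK18. The gap between A and B in the SW48 controls was thus larger than the difference of 0.23 between guides.

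**Figure D4:**
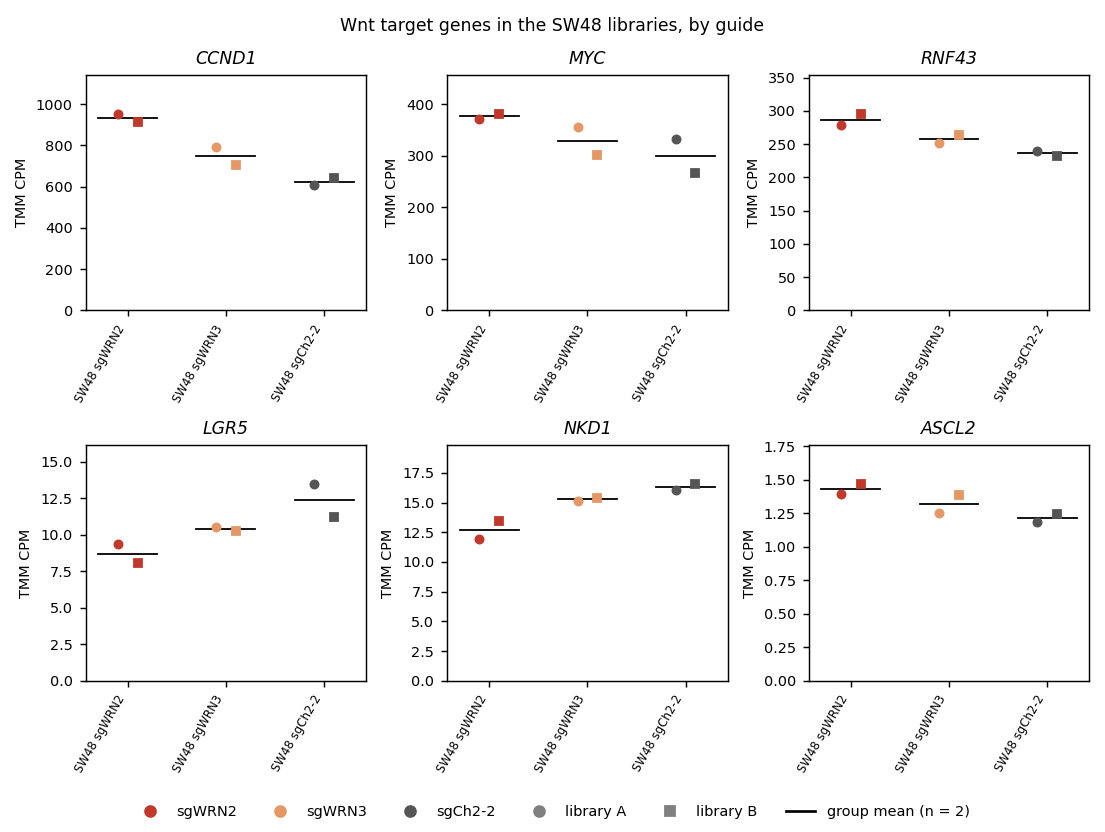
TMM CPM of CCND1, MYC, RNF43, LGR5, NKD1 and ASCL2 in the 6 SW48 libraries, by guide, on linear axes that start at 0. Circles are library A, squares library B and bars the group mean (n = 2); CCND1 lies between 702.4 and 952.5 CPM with the WRN guides, above 606.3 and 642.1 CPM with sgCh2-2, and LGR5 lies below its controls.

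In OVK18 none of the 7 Wnt target genes with counts passed the threshold with either WRN guide, with both or between the guides in edgeR, and DESeq2 and limma-voom also called 0. With both guides 0.0282% of all genes were called, with sgWRN2 0.796%, with sgWRN3 0% (116 at an unadjusted p under 0.05, 1 called by DESeq2 and 0 by limma-voom) and between the guides 0.747%. At an unadjusted p under 0.05 stood 0 genes of the list with both guides, 2 with sgWRN2 (13.9% of all genes) and 0 with sgWRN3. The 2 were ZNRF3, with a log2 difference of -0.24 (unadjusted p = 0.0484), and MYC, with 0.29 (unadjusted p = 0.0418). MYC was at 137.8 and 144.7 CPM with sgWRN2 and 121.2 and 104.1 CPM with sgWRN3, against 121.6 and 108.9 CPM with sgCh2-2, so the sgWRN2 pair stood above the rest. CCND1 was at 274.7 and 255.7 CPM with sgWRN2 and 291.9 and 291.7 CPM with sgWRN3, against 286.6 and 275.5 CPM with sgCh2-2. The sgWRN2 pair was the lowest, and with both guides the log2 difference was -0.01 (SE 0.0799, edgeR adjusted p = 1). AXIN2 differed by -0.44 (SE 0.241, edgeR adjusted p = 1), with 13 to 37 counts per library behind it. All 4 WRN-guide libraries stood above both controls for 0 of the 7 genes (2.9% of all genes) and below them for 0 (3.84%).

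**Figure D5:**
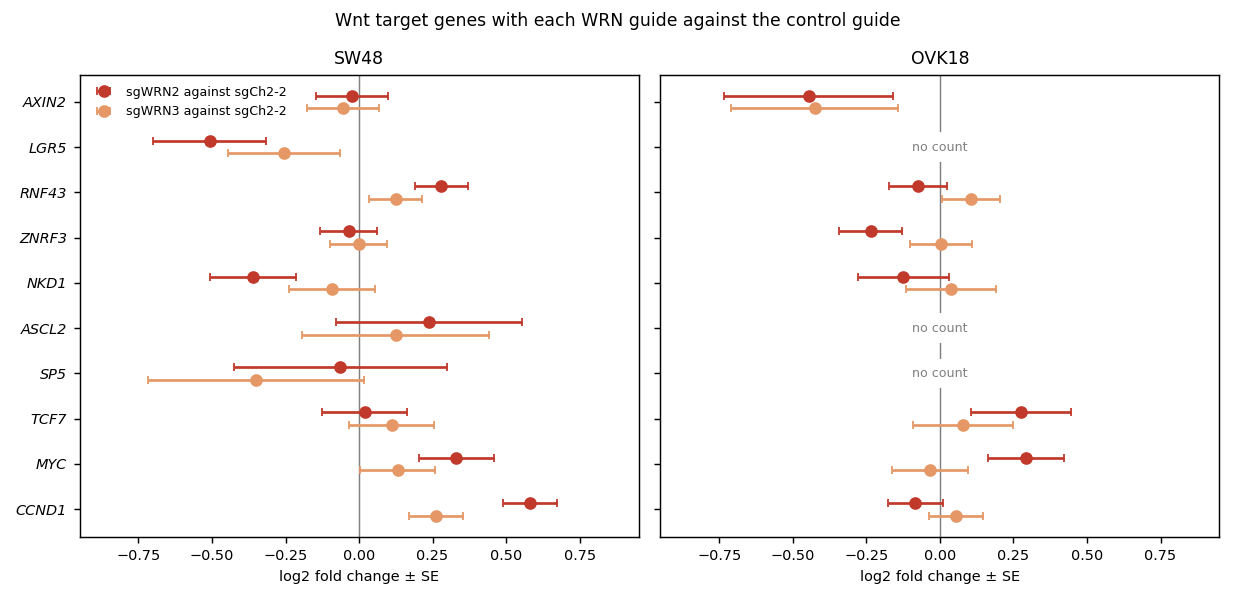
Log2 fold change of each Wnt target gene with sgWRN2 and with sgWRN3 against sgCh2-2 (n = 2 libraries each), with the SE, in SW48 (left) and OVK18 (right). CCND1 in SW48 is the farthest from 0 at 0.58 with sgWRN2, beside 0.26 with sgWRN3; its OVK18 values lie within 0.09 of 0, and genes with no count in OVK18 are marked.

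Whether the guides acted differently in the lines was tested as the WRN-guide effect in SW48 minus that in OVK18. For CCND1 this difference was 0.44 (SE 0.113, unadjusted p = 0.00231), and its edgeR adjusted p was 0.951. In that test 0 of the 7 Wnt target genes with counts in both lines passed, against 0.0282% of all genes, 1 of them (CCND1) had an unadjusted p under 0.05, and DESeq2 and limma-voom called 0. A CCND1 effect restricted to SW48 was therefore not shown.

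A few other pathway genes passed with sgWRN2, where 3.08% of all genes passed in SW48 and 0.796% in OVK18; nothing particular to a list is read from these counts. In SW48 with sgWRN2, SOX9 was the 1 of 16 other targets called (0.61, edgeR adjusted p = 0.0273), WNT2B the 1 of 12 ligand genes (1.25, adjusted p = 0.0342), FZD1 the 1 of 17 receptors (-0.61, adjusted p = 0.0131) and MXD1 the 1 of 9 genes of the MYC network (0.54, adjusted p = 0.0235). CDKN2C, an inhibitor of CDK4 and CDK6, averaged 8.71 ± 0.685 CPM with sgWRN2, against 17.7 ± 1.01 CPM with sgCh2-2 (SD, n = 2 each), a log2 difference of -1.03 (edgeR adjusted p = 0.00452). It was also the only gene of these lists past the threshold with both guides together (-0.67, adjusted p = 0.0443). With sgWRN3 none of the lists had a called gene in either line. In OVK18 with sgWRN2, FZD5 was lower (-0.65, edgeR adjusted p = 0.0298), and CCND2 was counted 38 times, against 1 time with sgCh2-2 and 0 times with sgWRN3.

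Genes whose profile was most like AXIN2, MYC or CCND1 were named by Pearson's r of log2 CPM over the 12 libraries after the mean of each line was removed; libraries and depth are shared by all values, and r is given as a description. For CCND1 they were NGFRAP1 (0.95), KRT6A (0.94) and CDSN (0.94). NGFRAP1 averaged 1.52 CPM with sgWRN2, 0.390 CPM with sgWRN3 and 0.0591 CPM with sgCh2-2 in SW48. Among the 10, LGR5 (-0.84) ran opposite to CCND1, and ASCL2 (0.75) and RNF43 (0.74) ran with it. For MYC they were DCTN1 (0.99), TFPT (0.98) and MVP (0.98), and for AXIN2 IDO1 (0.92), ELTD1 (0.85) and RAB19 (0.84). IDO1 and ELTD1 had no count in SW48, so their likeness to AXIN2 rests on OVK18 libraries, where AXIN2 was low. RAB19 was near the floor in OVK18, averaging 0, 0.080 and 0.132 CPM with sgWRN2, sgWRN3 and sgCh2-2, against 3.05, 3.12 and 3.04 CPM in SW48. In OVK18 AXIN2 was highest in sgCh2-2 A (1.44 CPM, 37 counts), with the other libraries at 0.712 to 0.854 CPM. LGR5, ASCL2 and KRT6A had no count in OVK18, so their values beside CCND1 rest on the 6 SW48 libraries.

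Reads over neighbouring genes could not be set apart, since whether counting used the strand is not given in the sources used here. In a GENCODE annotation of another build, used only to see which genes overlap, CCND1 overlaps LTO1 (listed as ORAOV1) on the opposite strand. ORAOV1 averaged 15.7 CPM with sgWRN2 and 17.1 CPM with sgWRN3, against 17.4 CPM with sgCh2-2 in SW48, and differed by -0.08 with both guides (edgeR adjusted p = 1). Between the control libraries ORAOV1 was higher in SW48 than in OVK18, where it averaged 8.17 CPM. That log2 difference was 1.08 (edgeR adjusted p = 5.89e-05), in the same direction as the 1.15 of CCND1. The part of ORAOV1 reads in the CCND1 line difference was not tested. TCF7 overlaps SKP1 on the opposite strand, and SKP1 was lower in SW48 than in OVK18 (log2 difference -0.29, edgeR adjusted p = 0.0199), against 3.22 for TCF7. RNF43 overlaps SUPT4H1 on its own strand, and SUPT4H1 too was lower in SW48 (-0.84, edgeR adjusted p = 3.39e-05), the reverse of RNF43. RNF43 also overlaps AC004687.2 on its own strand and TSPOAP1-AS1 on the opposite strand. AXIN2 overlaps AC004805.1 on its own strand. LGR5 overlaps AC078860.1 and NKD1 overlaps AC007608.1, both on the opposite strand. The levels of these further genes were not examined.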

How the data were processed

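Raw gene counts and FPKM values of 12 RNA-seq libraries, 2 in each of 6 groups, were used. The deposited counts were made by the authors; the submitters' processing notes name bcl2fastq 2.18, STAR 2.5, Cufflinks 2.2.1 and the build hg19. The deposited non-integer table is read as FPKM because the ratio of counts to these values follows transcript length, the unit being absent from its header. The annotation and the strand setting are not given in the sources used here. Total counts ran from 15423162 to 32581625, with 92 spike-in features, all at 0, left out. A count of 0 allows up to 3 counts; floors cover counting error only.

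Counts were tested in R 4.3.3 with edgeR 4.0.16: TMM scaling, filterByExpr with 6 groups (14199 genes), a coefficient for each group and a robust quasi-likelihood fit (6 residual degrees of freedom), adjusted by Benjamini and Hochberg over all genes at a threshold of 0.05. Where both WRN guides are named together, their coefficients were averaged before sgCh2-2 was subtracted. FPKM served for levels between genes and, with limma 3.58.1, as an alternative. The scripts were tested on simulated data. Alternatives were RLE scaling, library size alone, no filter, a mean of at least 5 CPM, DESeq2 1.42.0, limma-voom, fits of a line alone, a replicate block, fits without sgWRN2, limma on log2(FPKM + 1 or 0.1) and leaving out each library.

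The 10 genes and all lists were chosen with earlier results of these data known. The 10 genes and WRN are named throughout; of each other list, up to 4 called genes with the smallest p; for AXIN2, MYC and CCND1, the 3 most alike genes. SOX9, DKK1, CTNNB1, TCF7L2 and LEF1 in the line comparison, and the genes overlapping members, were named after their values were seen. Outlying libraries were not tested for, since each group has 2.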

Additional observations from a re-analysis of the deposited data

How the results depend on the processing

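The Wnt target genes stayed higher in SW48 than in OVK18, and called, in each of 23 alternatives, except that ASCL2 and SP5 were not tested at a mean of at least 5 CPM (8 of 8 called). LGR5, SP5 and ASCL2, with no count in OVK18, could only be higher in SW48 in any of them. With both guides in SW48 the number of the 10 genes called was 1, and 0 when only the libraries of the line were fitted, when sgWRN2 libraries were left out and in limma on FPKM with either pseudocount; leaving out 1 library at a time gave 0 to 1. With sgWRN2 it was 2 in DESeq2 (RNF43 added, adjusted p = 0.0365) and in limma on FPKM with pseudocount 1 (LGR5 added, adjusted p = 0.044), and 0 to 1 with 1 library left out. CCND1 was called in 11 of 24 alternatives with both guides and 20 of 22 with sgWRN2, positive in all. Among the alternatives counted for both guides, the fits without sgWRN2 libraries tested sgWRN3 alone. With a replicate block, that sgWRN3 fit gave a CCND1 call that is included in the count. The guides against each other gave 1 call, CCND1, in DESeq2. The causes were not tested. A lone library left in a group is assumed to vary like the others.

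The letters A and B did not pair the libraries over all 6 groups: of 15 pairs of groups, 7 had A minus B profiles that correlated over 0.1. The 6 pairs among the sgWRN3 and sgCh2-2 groups of both lines correlated at 0.493 to 0.572 and the sgWRN2 groups of the lines at 0.511, while pairs of an sgWRN2 group with another guide ran from -0.462 to -0.03, a hint from the data that the letters are shared within those sets. With a replicate block the 10 genes gave 1 call with both guides in SW48 (CCND1, 0.42, adjusted p = 0.0465), 1 with sgWRN2, 0 with sgWRN3, 0 in OVK18 and 10 between lines, as without it; without sgWRN2 libraries and with a replicate block, sgWRN3 in SW48 gave 1 (CCND1, 0.26, adjusted p = 0.0108), with 176 of 14209 genes called, against 0 without the block.

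ASCL2 in SW48 and AXIN2 in OVK18 rest on 13 to 37 counts per library, so small differences in them were not detectable at this depth.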
